A study of Homo sapiens with 6 samples.

Results

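The 78 genes of this report encode proteins of the mitochondrial ribosome. They were taken from the GENCODE 44 annotation of hg38 as the protein-coding genes on chromosomes 1 to 22 and X whose symbol begins with MRPL or MRPS followed by a digit, out of 19970 protein-coding genes on the same chromosomes. By symbol, 49 belonged to the large and 29 to the small subunit, and they were spread over 21 chromosomes. The rule used no measured value, but earlier results of these data were known when the genes were chosen. For each gene, peaks of histone lysine acetylation (Kac) and histone lysine benzoylation (Kbz) were looked up within 3 kb to either side of the transcription start site (TSS) of its canonical transcript, the transcript that the annotation marks as the representative of the gene.

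The mitochondrial ribosome makes the few proteins that mitochondrial DNA still encodes, all of them core subunits of the respiratory chain and the ATP synthase. Its RNAs come from mitochondrial DNA, but all its proteins are encoded in the nucleus, translated on cytosolic ribosomes and imported. Many of these proteins descend from bacterial ribosomal proteins and kept the bacterial family number, whereas others were added during the evolution of mitochondria. A few genes keep an MRP symbol for historical reasons: MRPS18A encodes a protein that sits in the large subunit, and the product of MRPS36 is now known as a part of the oxoglutarate dehydrogenase complex.

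The study asked where histone Kbz lies in the genome of cultured cells labelled HepG2, the name of a hepatoblastoma line. Chromatin was prepared by micrococcal nuclease digestion from control cells and from cells given 10 mM sodium benzoate (SB), a food preservative and drug that raises cellular benzoyl-CoA, for 24 h. The series held 6 libraries in 6 groups, with 1 library each: an input, a Kac and a Kbz library from control cells, and the same from SB-treated cells. The antibodies were pan anti-Kac and pan anti-Kbz antibodies, so the histone and the lysine that carried a mark are not known. Peak lists of 3 libraries were used, control Kac with 70329 peaks, SB Kac with 63282 and SB Kbz with 24308. The labels state that peak calling returned nothing for control Kbz, so Kbz had no untreated counterpart, and the input libraries were not analysed here. With 1 library per group there was no replicate error and no test between lists. The intervals below are Wilson 95% intervals, which cover counting error only. Peak lists carry no read totals, so the depth of each library was unknown. A peak also does not tell whether few cells carried much of a mark or many cells carried little.

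The label of the cell line was checked against marker genes, in lists chosen with earlier results of these data known. Of 20 liver products, 5 had a control Kac peak within 3 kb, 5 an SB Kac peak and 3 one of Kbz, and ALB, AFP, APOB, TTR and SERPINA1 had none in any list. Of 10 liver transcription factors, 7, 7 and 5 had a peak, and HNF4A and FOXA2 had none. Of 10 embryonic kidney markers, 8, 8 and 7 had a peak, of 8 neuronal markers 5, 6 and 4, and of 6 blood markers 2, 3 and 1. The shares of all protein-coding genes, given below for the members, were 73.1%, 72.1% and 60.5%, so the kidney and neuronal counts lay near the background. The cells are therefore called cells labelled HepG2 here, and the part of their identity in the results at the mitochondrial ribosomal protein genes was not tested.

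To show what lies under the peaks, 5 promoters are printed from the hg38 sequence, from 250 bases before the TSS to the first 30 bases of the transcript, 5′ to 3′ on the strand of the gene. Capitals mark matches, on either strand, to short motifs of 3 factors linked to genes of mitochondrial function: CCGGAAG for the ETS family with GABPA, GCGCANGCG for NRF1 and ATGGCGG for YY1. The first 4 promoters belonged to members with a high Kbz peak and were chosen for the motif they hold. They are MRPL52 (chr14:22829637-22829916, plus strand), MRPL3 (chr3:131502942-131503221, minus strand), MRPS33 (chr7:141014923-141015202, minus strand) and MRPL19 (chr2:75646533-75646812, plus strand). Counting the first transcribed base as 1, MRPL52 had a YY1 match from −95 and an ETS match from −5, MRPL3 an ETS match from −32, MRPS33 an NRF1 match from −155 and an ETS match from 1, and MRPL19 a YY1 match from −53. MRPS33, the highest member with an NRF1 match, had a Kbz peak whose fold ranked at percentile 96.4 of its list, with its Kac peaks at 94.9 in control and 98.8 in SB-treated cells.
MRPL52: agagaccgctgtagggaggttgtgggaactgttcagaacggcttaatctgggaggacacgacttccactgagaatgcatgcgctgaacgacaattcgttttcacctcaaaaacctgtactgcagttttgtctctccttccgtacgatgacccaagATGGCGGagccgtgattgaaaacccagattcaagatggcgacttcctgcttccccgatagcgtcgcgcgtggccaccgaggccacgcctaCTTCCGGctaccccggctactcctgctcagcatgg
MRPL3: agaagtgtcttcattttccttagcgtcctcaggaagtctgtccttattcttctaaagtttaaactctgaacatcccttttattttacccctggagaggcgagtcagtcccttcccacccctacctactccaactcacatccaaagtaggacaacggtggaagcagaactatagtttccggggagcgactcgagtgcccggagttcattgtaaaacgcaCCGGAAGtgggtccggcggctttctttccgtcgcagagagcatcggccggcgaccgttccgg
MRPS33: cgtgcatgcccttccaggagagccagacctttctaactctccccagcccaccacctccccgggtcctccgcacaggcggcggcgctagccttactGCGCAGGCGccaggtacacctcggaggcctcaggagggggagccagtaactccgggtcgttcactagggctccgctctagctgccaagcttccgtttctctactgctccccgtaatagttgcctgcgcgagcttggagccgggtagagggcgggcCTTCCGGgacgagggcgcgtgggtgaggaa
MRPL19: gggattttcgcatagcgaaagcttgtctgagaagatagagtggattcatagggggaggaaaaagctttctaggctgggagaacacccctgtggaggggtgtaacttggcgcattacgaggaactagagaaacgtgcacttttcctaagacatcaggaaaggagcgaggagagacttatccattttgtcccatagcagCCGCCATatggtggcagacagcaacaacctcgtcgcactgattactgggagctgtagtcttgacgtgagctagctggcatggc

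The last promoter belonged to a member with no peak of any list, in a window of which 44.8% was unique sequence, as described below, so its letters are no contrast for Kbz alone. It is MRPL45 (chr17:38296918-38297197, plus strand), which had an NRF1 match from −189.
MRPL45: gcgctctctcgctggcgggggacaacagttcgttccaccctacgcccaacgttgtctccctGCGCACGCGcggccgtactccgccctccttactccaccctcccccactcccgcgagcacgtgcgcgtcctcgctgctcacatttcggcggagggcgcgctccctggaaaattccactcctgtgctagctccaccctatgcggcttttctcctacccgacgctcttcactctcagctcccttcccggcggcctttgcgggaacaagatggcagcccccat

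Nearly all mitochondrial ribosomal protein genes carried both marks at their start. A control Kac peak lay within 3 kb of the TSS in 76 of 78 members (97.4%, interval 91.1 to 99.3), an SB Kac peak likewise in 76, and Kbz in 74 (94.9%, interval 87.5 to 98.0). Of all 19970 protein-coding genes, 73.1% had control Kac, 72.1% had SB Kac and 60.5% had Kbz in this window. All 3 peaks were found at 74 members, against 60.0% of all protein-coding genes. MRPL14 and MRPS6 had Kac in both conditions without Kbz, and MRPL23 and MRPL45 had no peak in any list.

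The TSS itself lay under a peak in 75 members in control Kac, in 76 in the SB Kac list and in 71 in Kbz (91.0%, interval 82.6 to 95.6). The shares of all protein-coding genes were 59.3%, 60.5% and 45.9%. With only peaks of a −log10 q of at least 5 counted, where q is the false discovery rate that the peak caller gives a peak, 68 members kept control Kac, 73 kept SB Kac and 67 kept Kbz, against 48.2%, 54.6% and 41.3% of all protein-coding genes. With the 15000 peaks of highest −log10 p taken from each list, so that the lists were equal in size, 58 members had control Kac, 71 had SB Kac and 73 had Kbz, against 39.3%, 49.1% and 49.2%.

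**Figure D1:**
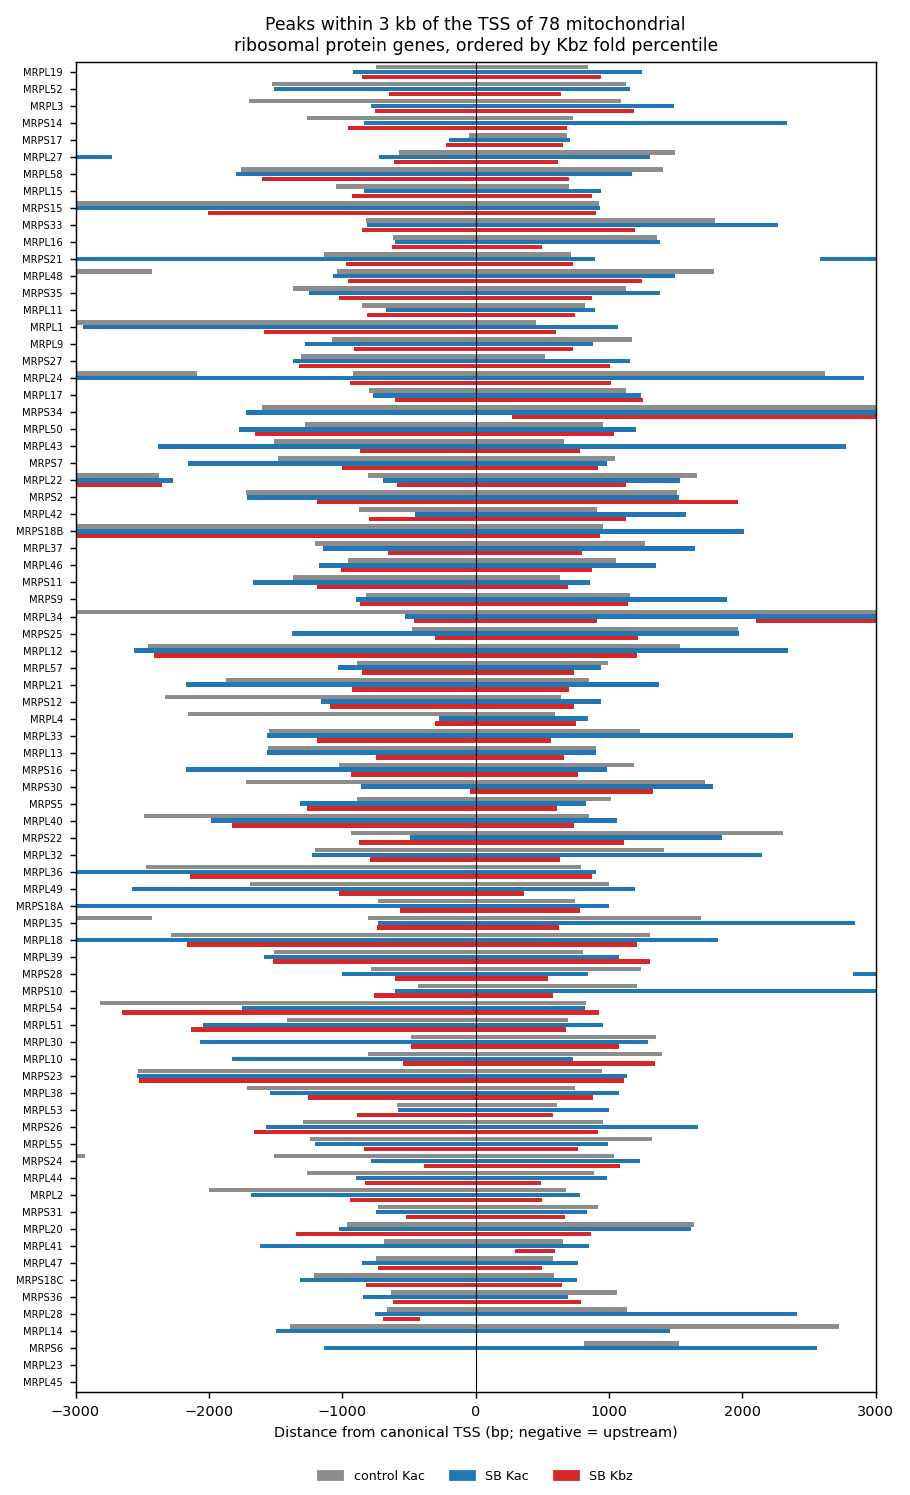
Each row is 1 of the 78 genes, ordered by the fold percentile of its strongest Kbz peak, and the bars are its control Kac (grey), SB Kac (blue) and Kbz (red) peaks, plotted by distance from the TSS in bp and cut at 3 kb. The 3 bars overlie the TSS in most rows, and the 4 rows at the bottom, MRPL14, MRPS6, MRPL23 and MRPL45, have no red bar.

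The order of the members in the map follows the fold percentile. Fold is the deposited ratio of read density in a peak to its background, and its percentile is the rank of that fold within the peak's own list, since folds of lists of unknown depth cannot be set side by side. Where a member had several peaks in the window, the peak with the highest fold was used. The median percentile over members was 87.7 in control Kac (quartiles 81.3 and 95.3), 94.3 after SB (89.9 and 98.3) and 81.1 in the Kbz list (67.3 and 92.5). The medians over all protein-coding genes with a peak were 81.8, 85.4 and 67.8. A percentile above 90 was reached in control Kac by 34 members, in SB Kac by 55 and in Kbz by 22. As a share of the members with a peak, these were 44.7%, 72.4% and 29.7%, against 29.1%, 36.2% and 15.8% of all protein-coding genes with a peak.

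Large and small subunit genes had like Kbz percentiles, with medians of 81.0 and 82.0. The 45 members whose symbol carries a bacterial family number, with MRPS24, the counterpart of a bacterial protein of another number, included, had a median of 82.9, and the 33 others 74.6. Single members ran from 20.2 to 99.7, and no test between the classes was made.

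The highest Kbz peak belonged to MRPL19, which encodes a large subunit protein of bacterial descent. Its Kbz peak (chr2:75645933-75647725) had a fold of 10.0 and a percentile of 99.7, and its Kac peaks had percentiles of 99.9 in both conditions. MRPL52, a large subunit protein without a bacterial counterpart, also reached 99.7 in Kbz, with 94.3 in control Kac and 99.2 in SB Kac. MRPL3, whose protein reaches towards the peptidyl transferase centre, had 98.3 in Kbz, 98.7 in control Kac and 99.5 in SB Kac. MRPS14 had 98.3 in Kbz, 83.3 in control Kac and 99.7 in SB Kac. MRPS17 had 98.0 in Kbz, 87.4 in control Kac and 95.7 in SB Kac. All 5 were thus high in both marks after SB, whereas MRPS14 and MRPS17 had control Kac values near the median of the members.

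The lowest Kbz peak belonged to MRPL28, a large subunit protein of bacterial descent, with a percentile of 20.2 and a −log10 q of 2.28. Its Kac percentile was 80.0 in control and 56.0 in SB-treated cells. MRPS36 had 34.6 in Kbz, 83.1 in control Kac and 83.8 in SB Kac. MRPS18C had 46.2 in Kbz, 74.6 in control Kac and 91.9 in SB Kac. MRPL47 had 47.3 in Kbz, 72.3 in control Kac and 87.9 in SB Kac. MRPL41 had 47.8 in Kbz, 70.6 in control Kac and 74.4 in SB Kac. These 5 members carried SB Kac above the middle of its list, as did all 76 members with SB Kac. The same held for 90.9% of all protein-coding genes with an SB Kac peak, whose median was 85.4. MRPL28, MRPS36 and MRPL41 were below that median, and MRPS18C and MRPL47 above it.

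**Figure D2:**
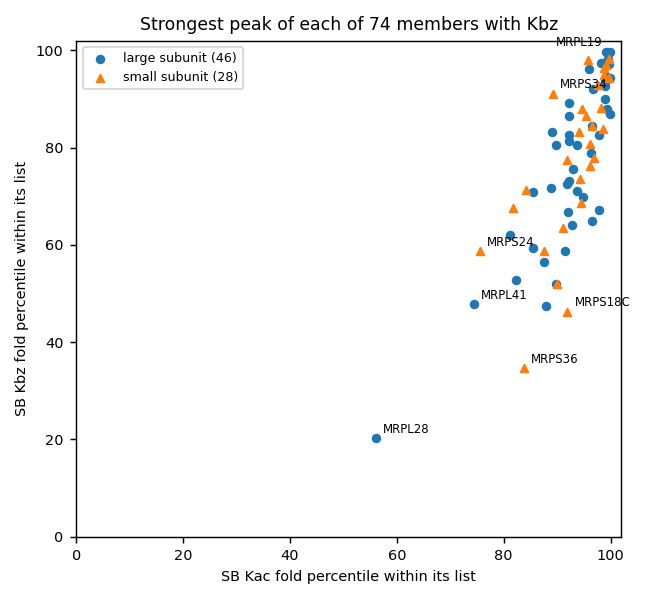
Each point is 1 of the 74 members with a Kbz peak, with the percentile of its strongest SB Kac peak within the SB Kac list on the x axis and that of its strongest Kbz peak within the Kbz list on the y axis, for 46 large (circles) and 28 small subunit genes (triangles). Points crowd at the right, since SB Kac had a median of 94.3, and they spread from 20.2 to 99.7 on the Kbz axis, with both subunits mixed.

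Over the 74 members with both marks, the percentiles of SB Kac and Kbz went together, with a Spearman rho of 0.809 and a Pearson r of 0.789. The rho over the 12032 protein-coding genes with both peaks was 0.746. For control Kac with Kbz the members' rho was 0.615 and Pearson's r 0.586, with a rho of 0.602 over all protein-coding genes. For both Kac lists rho was 0.722 over 76 members and 0.749 over all protein-coding genes. These values are across genes, which are not independent replicates, and the points share the cells, the base composition of the promoters and, for SB Kac with Kbz, the treatment. The Kbz percentile was the higher of the pair at MRPL16, MRPL52, MRPS17 and MRPS34, and the SB Kac percentile at the other 70 (94.6%), against 92.1% of all protein-coding genes with both peaks.

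The proteins of the ribosomal stalk and of the decoding site were looked at by gene. MRPL12 forms the mobile stalk that recruits translation factors, MRPL10 anchors it, and MRPL11 lies at its base. MRPL11 had the highest values of the stalk genes, with a control Kac percentile of 97.3, an SB Kac percentile of 99.8 and a Kbz percentile of 94.4. MRPL12 had 93.6, 92.2 and 82.6, and MRPL10 had 77.6, 92.8 and 64.1. MRPS12, a decoding-site protein, had 93.5, 96.1 and 80.7 in the same order. All 4 thus carried all 3 peaks over the TSS, with a wider range in Kbz than in SB Kac.

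The 3 MRPS18 genes encode related proteins that take different places in the ribosome. MRPS18B (chr6:30613789-30618774) had the highest Kbz percentile at 86.6, MRPS18A (chr6:43687013-43688357) had 71.3 and MRPS18C (chr4:83455239-83456702) had 46.2. In control Kac the values were 97.9 for MRPS18B, 94.5 for MRPS18A and 74.6 for MRPS18C. In SB Kac they were 95.4, 84.2 and 91.9, so the order of MRPS18A and MRPS18C differed between both Kac lists.

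The median Kbz peak of the members was 1775 bp long, whereas the median Kac peak was 2453.5 bp in control and 2651.5 bp in SB-treated cells. The medians over all protein-coding genes with a peak were 1642, 2561 and 2682 bp. The longest Kbz peaks were those of MRPS18B (4986 bp), MRPS34 (3792 bp) and MRPS23 (3635 bp), and the shortest those of MRPL28 (280 bp), MRPL41 (304 bp) and MRPS17 (876 bp). Length and fold were thus not the same order, since MRPS17 combined the third shortest Kbz peak with the fifth highest percentile.

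Kbz lay almost wholly on acetylated chromatin. Of the Kbz bases in the members' windows, 96.8% were inside an SB Kac peak, against 97.6% over all protein-coding genes. The windows held 75 distinct Kbz peaks, with 2 each at MRPL22 and MRPL34. Counted once per gene, so that the peak shared by MRPL46 and MRPS11 counts for both, 55 of 76 lay wholly inside SB Kac (72.4%), against 80.9% over all protein-coding genes. SB Kac covered more of the window than Kbz in 73 members (96.1% of those that differed), against 95.3% of all protein-coding genes, and Kbz covered more in MRPL15, MRPL39 and MRPL54.

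**Figure D3:**
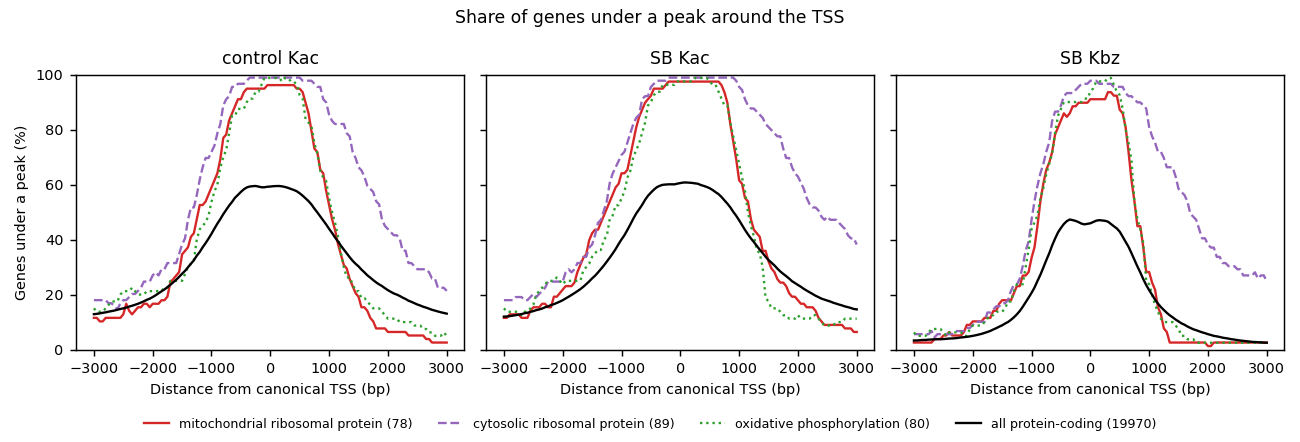
The x axis is the distance from the TSS in bp and the y axis the percentage of genes that have a peak over that position, for control Kac, SB Kac and Kbz, in the 78 mitochondrial ribosomal protein genes (red), 89 cytosolic ribosomal protein genes (dashed), 80 nuclear oxidative phosphorylation genes (dotted) and 19970 protein-coding genes (black). The red Kbz curve holds at 91.0% at the TSS and 87.2% at 500 bp downstream and is at 2.56% at 1500 bp, where the dashed curve is still far above it.

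Kbz at the members was short on the side of the gene body. The share of members with Kbz over a position was 83.3% at 500 bp upstream, 91.0% at the TSS and 87.2% at 500 bp downstream, and it was 28.2% at 1000 bp and 2.56% at 1500 bp downstream. For all protein-coding genes the shares at the same positions were 44.2%, 45.9%, 42.9%, 21.6% and 10.2%. Of the 71 members with Kbz over the TSS, MRPS2 alone had a peak that reached more than 1.5 kb downstream (1.41%, to 1967 bp), against 16.3% of the 9170 protein-coding genes with Kbz over the TSS. Upstream, 14 of the 71 reached beyond 1.5 kb (19.7%), against 14.0%. The peak over the TSS reached a median of 887 bp upstream and 789 bp downstream, against 852 and 885 bp over all protein-coding genes. It extended farther upstream than downstream in 48 of 71 members (67.6%), against 47.7%. This was so in 46 of 75 nuclear oxidative phosphorylation genes (61.3%) and in 16 of 87 cytosolic ribosomal protein genes (18.4%). Kac at the members was short on the side of the gene body as well. Of the members with Kac over the TSS, 18.7% in control Kac and 32.9% in SB Kac reached beyond 1.5 kb downstream. The shares over all protein-coding genes were 43.2% and 47.8%.

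The genes of the other ribosome were set beside them. They were taken by symbol, RPL or RPS followed by a digit without the RPS6K kinases, with RPSA, RPLP0, RPLP1 and RPLP2. Paralogs and other genes whose symbols match, such as RPL10L and RPL3L, are therefore among them. Cytosolic ribosomal protein genes had Kbz within 3 kb in 88 of 89, and RPL10L had no peak in any list. Their median Kbz percentile was 91.4 and their median Kbz length 2789 bp, against 81.1 and 1775 bp for the mitochondrial set. Over the TSS, the cytosolic set reached 991 bp upstream and 1684 bp downstream, and 51 of 87 peaks (58.6%) reached beyond 1.5 kb downstream. SB Kac showed the same order, with a median downstream reach of 2354.5 bp in the cytosolic and 1195.5 bp in the mitochondrial set.

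Nuclear genes of oxidative phosphorylation, whose products assemble with those of the mitochondrial ribosome, had values closer to those of the members. Kbz was present at 79 of 80, with SDHA lacking it. The median Kbz percentile was 77.9, the median length 1810 bp and the median reach 926 bp upstream and 797 bp downstream, and 5 of 75 (6.67%) reached beyond 1.5 kb downstream. Kac in both conditions and Kbz were present at all 39 mitochondrial translation factors, at all 20 mitochondrial aminoacyl-tRNA synthetases and at the 5 subunits of the mitochondrial ribosome whose symbols do not begin with MRP, DAP3, PTCD3, AURKAIP1, CHCHD1 and GADD45GIP1. Median Kbz percentiles were 79.7, 80.9 and 61.9 in these 3 groups. No test of the differences between the sets was made.

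Kac in SB-treated cells was set against Kac in control cells to ask whether the treatment moved acetylation at these genes. No member had Kac in 1 condition only. Of all 19970 protein-coding genes, 692 had it in control cells only and 496 in SB-treated cells only. Such genes were thus few in the background too, and their absence among the members does not set the members apart. The percentile was higher in SB Kac than in control Kac in 61 of 76 members (80.3%), against 62.2% of the 13898 protein-coding genes with both. The median difference, SB minus control, was 4.91 percentile points, against 2.20. The sets most like the members also had a higher median percentile in SB Kac than in control Kac. The medians were 93.2 against 86.9 in mitochondrial translation factors and 95.5 against 85.2 in mitochondrial aminoacyl-tRNA synthetases. They were 94.1 against 90.7 in oxidative phosphorylation genes and 97.6 against 97.4 in the cytosolic set. SB Kac covered more of the window in 55 of 76 members (72.4%), against 52.9% of the protein-coding genes whose coverage differed. Median coverage of the window was 39.7% in control Kac and 44.2% in SB Kac, against 32.4% and 33.1% over all protein-coding genes. These values compare 1 library with 1 library, and a difference in depth or background between them cannot be told apart from the treatment.

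The members differed in the size of this difference. MRPS6, a small subunit protein of bacterial descent, had the largest difference upwards, from a percentile of 30.1 in control Kac to 60.1 in SB Kac. Next came MRPS24, from 55.3 to 75.5, and MRPS34, from 69.9 to 89.2. MRPL28 had the largest difference downwards, from 80.0 to 56.0, followed by MRPS18A, from 94.5 to 84.2. At MRPL24, named like MRPS24 after its values were seen, the Kac peak over the TSS was 3538 bp long in control cells. A further control Kac peak of 944 bp (chr1:156743179-156744122) reached into the window. In SB-treated cells the peak over the TSS was 15033 bp long, from 12120 bp upstream to 2912 bp downstream, and spanned both control peaks. The nearest other protein-coding start, that of HDGF, lay 10587 bp from the TSS of MRPL24. How much of the SB Kac peak belongs to the MRPL24 promoter was not tested. The Kbz peak of MRPL24 was 1951 bp long.

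MRPL14 and MRPS6 had Kac without Kbz. MRPL14, a large subunit protein that faces the small subunit, starts at chr6:44127452 on the minus strand. Its control Kac peak (chr6:44124726-44128841) had a percentile of 64.5 and its SB Kac peak (chr6:44125994-44128948) 78.3, both over the TSS. The nearest Kbz peak lay 5828 bp away. MRPS6 starts at chr21:34073578 on the plus strand, at the same base as SLC5A3, an inositol transporter gene. Its control Kac peak (chr21:34074391-34075101) began 813 bp downstream of the TSS, and its SB Kac peak (chr21:34072440-34076137) covered the TSS. The nearest Kbz peak lay 11454 bp away. Both genes thus lay below the lower quartile of the members in both Kac lists.

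MRPL23 and MRPL45, whose proteins line the exit of the ribosomal tunnel, had no peak in any list. MRPL23 starts at chr11:1947332 on the plus strand, and the nearest peaks lay 3215 bp away for SB Kac, 10065 bp for control Kac and 19880 bp for Kbz. MRPL45 starts at chr17:38297168 on the plus strand, and the nearest control Kac peak lay 27946 bp away, with SB Kac at 28474 bp and Kbz at 36023 bp. The study kept uniquely mapped reads of 50 bases, so the share of the 50-base stretches of each window that occur once in hg38 was counted. Without the alternate loci of the assembly, this share was 10.1% for MRPL23 and 44.8% for MRPL45, and it was between 85.3% and 100% for the other 76 members. For MRPL23, 89.0% of the stretches occurred again on an unlocalized sequence of chromosome 11, and for MRPL45 52.6% occurred elsewhere on chromosome 17. MRPL14 and MRPS6 had shares of 97.2% and 97.8%.

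A coarser count was made over all protein-coding genes, within 1 kb of the TSS and with a stretch taken every 50 bp. By this count MRPL23 had a share of 5.0% and MRPL45 one of 52.5%, so MRPL45 was not among the genes below 50%. Of the 673 genes with a share below 50%, 2.97% had control Kac, 3.42% had SB Kac and 2.38% had Kbz within 3 kb, against 75.5%, 74.5% and 62.5% of the other 19297. With alternate loci counted as well, the share was 0% for MRPS18B, 4.89% for MRPL45, 10.1% for MRPL23 and 28.9% for MRPS36. MRPS18B and MRPS36 nevertheless had all 3 peaks. The part of repeated sequence in the missing peaks of MRPL23 and MRPL45 was not tested.

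**Figure D4:**
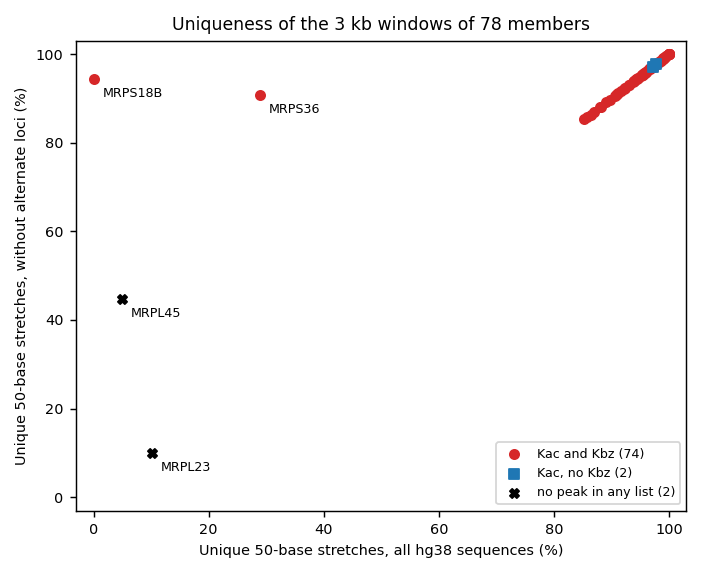
Each point is 1 of the 78 genes, with the percentage of its 50-base stretches within 3 kb of the TSS that occur once in all hg38 sequences on the x axis and once in hg38 without alternate loci on the y axis. MRPL23 (10.1%) and MRPL45 (44.8%), the crosses, are the points low on the y axis, and MRPS18B and MRPS36 are low on the x axis alone.

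Kbz lay beside the TSS, not over it, at 3 members. MRPL41 had a Kbz peak of 304 bp (chr9:137552172-137552475) from 293 to 596 bp downstream. MRPL28 had a Kbz peak of 280 bp (chr16:370956-371235) from 418 to 697 bp upstream. At MRPS34, a small subunit protein without a bacterial counterpart, the Kbz peak (chr16:1769070-1772861) began 273 bp downstream and ran to 4064 bp, with a percentile of 91.1. The next protein-coding start, that of EME2, lay 324 bp from the TSS of MRPS34. The gene to which this Kbz peak belongs was not tested. Both Kac lists had a peak over the TSS at all 3 genes.

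A shared promoter region with another gene was common among the members. A protein-coding gene on the opposite strand started within 1 kb upstream of 26 members (33.3%), against 9.49% of all protein-coding genes, 14.7% of those with a Kbz peak, 15.7% of the cytosolic set and 31.3% of the oxidative phosphorylation set. MRPL46 and MRPS11 were neighbours of this kind to each other, 320 bp apart, and shared 1 Kbz peak (chr15:88466516-88468396) with a percentile of 84.5. Among other neighbours, picked after the list was seen for their own role in mitochondria, were SARS2, the mitochondrial seryl-tRNA synthetase, 181 bp from MRPS12, TWNK, the helicase of mitochondrial DNA, 46 bp from MRPL43, and NDUFB5, a subunit of complex I, 156 bp from MRPL47. A peak between such genes cannot be assigned to 1 of them.

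The upstream lean of Kbz was set against these neighbours. Kbz covered more of the upstream than of the downstream side in 50 of 74 members. This was so in 21 of 25 members with such a neighbour (84.0%), against 65.8% of all protein-coding genes with Kbz and a neighbour. Without a neighbour it was so in 29 of 49 members (59.2%), against 46.8%. Kac was looked at by the reach of its peak over the TSS. The SB Kac peak reached farther upstream than downstream in 21 of 26 members with a neighbour (80.8%) and in 19 of 50 without (38.0%). In control Kac this was so in 18 of 26 (69.2%) and in 22 of 49 (44.9%).

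Sequence features of the promoters were counted in the stretch from 250 bases before to 50 bases after the TSS, on both strands. The ETS motif CCGGAAG was present in 32 of 78 members (41.0%), against 14.1% of all protein-coding promoters and 20.2% of those with a Kbz peak. The YY1 motif ATGGCGG was present in 26 (33.3%), against 7.83% and 11.3%. The NRF1 motif GCGCANGCG was present in 15 (19.2%), against 11.0% and 15.8%. At least 1 of the 3 was found in 56 members (71.8%), against 27.9%, 39.5% and, in the cytosolic set, 59.6%. The sets closest in function were searched as well. The ETS motif was present in 20 of 39 mitochondrial translation factors (51.3%), 8 of 20 mitochondrial aminoacyl-tRNA synthetases and 24 of 80 oxidative phosphorylation genes, and the YY1 motif in 4 (10.3%), 5 and 24 of them, so shares near those of the members occurred in some of these sets.

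The other motifs searched were GGGCGG of the SP and KLF factors, CCAAT of NFY, TATAAA of the TATA box and ACTACAATT of ZNF143. They were present in 47 (60.3%), 22 (28.2%), 4 (5.13%) and 0 members, against 61.3%, 36.0%, 9.73% and 0.451% of all protein-coding promoters. Among protein-coding genes with a Kbz peak the shares were 74.6%, 36.6%, 5.27% and 0.646%. Beside these genes the members were lower in GGGCGG and level in TATAAA. The CCAAT letters may stand in the same stretch as another motif, and no overlap was removed. GC content had a median of 59.7%, against 63.7% over all protein-coding promoters. The median Kbz percentile was 71.3 in members with the ETS motif and 83.8 in those without. Over all protein-coding genes with a Kbz peak it went the other way, with 73.1 and 66.0. For the YY1 motif the members had 86.6 with it and 79.0 without, against 76.2 and 66.7. For the NRF1 motif they had 82.5 and 80.7, against 71.5 and 67.0. A match is a run of letters and not a bound site, and binding of these factors was not measured.

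**Figure D5:**
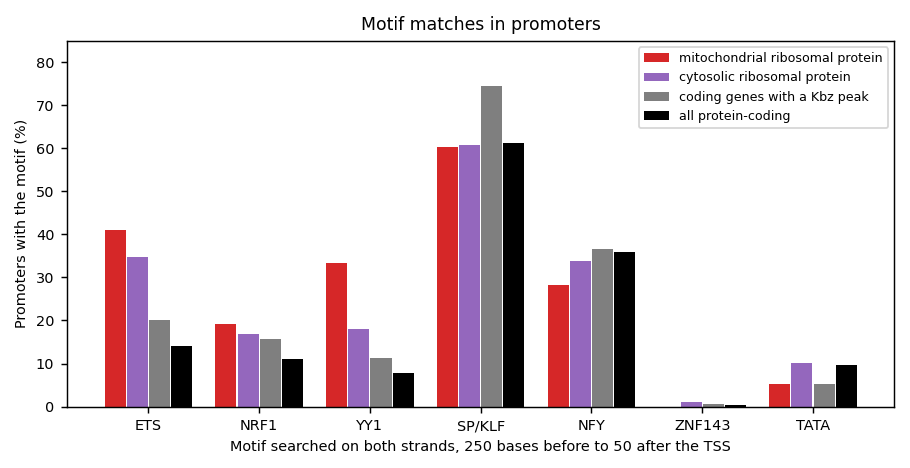
Bars start at 0 and give the percentage of promoters, from 250 bases before to 50 after the TSS, that hold each of 7 motifs on either strand, for mitochondrial ribosomal protein genes (red), cytosolic ribosomal protein genes (purple), protein-coding genes with a Kbz peak (grey) and all protein-coding genes (black). The red bars are at 41.0% for ETS and 33.3% for YY1, where the black bars are at 14.1% and 7.83%.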

How the data were processed

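ChIP-seq libraries of cells labelled HepG2, without and with SB, were analysed from the peak lists that the authors deposited, 1 library per list. Per the study's methods and the submitters' processing notes, the authors aligned single reads of 50 bases to hg38 with Bowtie2 2.2.6, left out reads that map to several places, took out PCR duplicates by SAMtools 0.1.19 and called peaks with MACS2 2.1.1 at a stated FDR of 0.01. Whether the index held alternate loci, and which broad setting and background were used, is not given in the sources used here. Each deposited peak has a fold, a linear ratio of read density over background, a −log10 p and a −log10 q, all averaged over the broad peak by the authors' caller, and a deposited integer score, which was not used. The lists also hold peaks with a −log10 q under 2, that is, beyond the stated FDR.

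A gene had a peak when at least 1 bp of a peak lay within 3 kb of its canonical TSS in GENCODE 44. Fold was used only as a percentile within its own list. Motifs, GC content and the repeats of 50-base stretches were read from the hg38 sequence. Counts and overlaps were made in pandas 2.3.3 and numpy 2.4.6 under Python 3.11.15, intervals in scipy 1.17.1, the repeat search in numba 0.67.0 and plots in matplotlib 3.10.9. The overlap step was first tested with points planted inside and just beside peaks drawn from each deposited list. The members, gene lists and marker lists were chosen with earlier results of these data known. Genes named with values are the members without Kbz, without Kac or with Kbz beside the TSS, the 5 highest and 5 lowest by Kbz percentile, the 3 longest and 3 shortest Kbz peaks, the printed promoters (the 2 highest Kbz percentiles with an ETS motif, the highest with NRF1 and with YY1, and the first 3 by symbol without Kbz, of which the promoters of 2 are not reported here), the stalk and decoding-site proteins, the MRPS18 genes, and genes of the comparison and marker lists that lack a peak. Members outside this rule are named where a count of 5 or fewer holds them or where their difference in Kac stood out, and were chosen after their values were seen.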

Additional observations from a re-analysis of the deposited data

How the results depend on the processing

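Of 63 alternative settings over 26 results, 54 gave a value within the limits set (within 1.5 times the value reported, or, for members with no other coding TSS within 6 kb, a share within its Wilson interval). This limit is wide and does not ask whether a value stays above that of all protein-coding genes. Control Kac went from 76 to 58 members with 15000 peaks of each list and still counted as within it. The exceptions to the limits follow from the windows used. In a window of 1 kb in place of 3 kb, median coverage was 100% on both sides of the TSS for control Kac and for SB Kac, and 86.0% upstream and 76.4% downstream for Kbz. From 500 bases before to 100 after the TSS, 40 members held the NFY motif, 12 the TATA motif and 1 the ZNF143 motif. No paired analysis was possible because no group had more than 1 library, and for the same reason no replicate could be left out. Depth was unknown, so an absent peak may lie below the reach of a library.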
